A study of Capra hircus with 20 samples.

Results

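Motile cilia beat. In the brain they stand in tufts on ependymal cells, the epithelium that lines the ventricles, and move cerebrospinal fluid along the wall of the third ventricle, against which the hypothalamus lies. Each cilium is built on an axoneme of microtubule doublets around a central pair: dynein arms on the doublets pull the neighbouring doublet, the nexin-dynein regulatory complex and the radial spokes regulate the arms, and tektins and other proteins line the inside of the doublet walls. FOXJ1 is the transcription factor known for switching on this set of genes, and the neurons and most other cells of the hypothalamus carry a single primary cilium that lacks dynein arms.

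The genes described here are those of the deposited expression table whose symbol begins with DNAH (dynein heavy chains), DNAI (dynein intermediate chains), CFAP (cilia and flagella associated proteins), RSPH (radial spoke heads) or TEKT (tektins), together with FOXJ1, CCDC39, CCDC40, DRC1, HYDIN and SPAG6. The rule found 55 of the 21071 genes in the table: 25 CFAP, 13 DNAH, 5 RSPH, 4 TEKT and 2 DNAI genes and the 6 named singly. It goes by symbol, so genes of the same families listed under an older symbol, such as WDR78 (DNAI4), are not among them. The 55 genes lie on 23 chromosomes of the goat assembly ARS1.2, 9 of them on chromosome 19. FOXJ1 spans positions 54767775 to 54772629 of that chromosome.

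The libraries came from the hypothalamus of female Jining grey goats of 4 ages: 1 day (D1), 60 days (M2), 120 days (M4) and 180 days (M6), with 5 goats at each age and 1 library from each goat. The goats were healthy, carried no treatment in the labels and were kept alike, and the ages run from birth to sexual maturity. The labels name the hypothalamus and no sorted cells, so the tissue can hold neurons, glia, vessels and whatever stretch of ventricle wall came with it. Each gene was measured as FPKM, a fragment count scaled by transcript length and by the total of mapped fragments. In bulk tissue, fewer ciliated cells and less of these RNAs per cell cannot be told apart.

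The libraries were uneven in their makeup before any cilia gene was considered. The sum of FPKM ran from 260199 to 377479. In M2 replicate 3 a single gene held 23.9% of that sum, against 2.54% to 11.7% in the other 19 libraries. M6 replicate 3 had the fewest genes with at least 0.1 FPKM, 15363, and the lowest summed FPKM of 11 neuron genes, 89.9, followed by M2 replicate 1 with 275. Markers of the labelled tissue were also uneven: the hypothalamic factor NKX2-1 was listed at 0 in 4 libraries and above 1 FPKM in 7, and the neuropeptide gene AVP ran from 0.246 to 392 FPKM.

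Most of the cilia genes were low. The median of their 55 mean levels was 1.66 FPKM, against 5.04 FPKM over the 16771 genes that passed a filter of 0.1 FPKM in 5 libraries. Means of 1 FPKM or more were reached by 38 genes, of 5 or more by 8, and of 10 or more by 5. A total of 53 genes passed the filter. The other 2 were CFAP65, whose highest value was 0.529 FPKM in M6 replicate 4, and TEKT5, listed at 0 in 19 libraries and at 0.176 FPKM in M4 replicate 2. The 10 highest mean levels were those of CFAP36 (76.0 FPKM), CFAP20 (22.6), RSPH9 (15.6), CFAP54 (15.3), CFAP97 (14.4), CCDC39 (8.38), TEKT1 (8.11), CFAP69 (5.04), CFAP74 (4.91) and DNAH9 (4.77).

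The levels of the cilia genes varied together from goat to goat, and within each age 1 library stood above the rest. The libraries were D1 replicate 4, M2 replicate 1, M4 replicate 2 and M6 replicate 4. D1 replicate 4 held the highest D1 value of 48 of the 53 genes (90.6%), while 31.1% of all tested genes had their highest D1 value in that library. M4 replicate 2 held the highest M4 value of 35 (66% against 20.3%), M6 replicate 4 the highest M6 value of 45 (84.9% against 29.9%), and M2 replicate 1 the highest M2 value of 25 (47.2% against 27.4%). In these libraries 43, 43, 46 and 41 cilia genes in that order exceeded 1 FPKM, and in the other libraries 19 to 37 did.

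A summary value for each library, here called the cilia profile, was the mean over the 53 genes of log2(FPKM + 0.1) after each gene was centred and scaled to SD 1. It reached 1.17 in D1 replicate 4, 0.86 in M2 replicate 1, 0.86 in M4 replicate 2 and 1.54 in M6 replicate 4. The other 16 libraries lay between -0.74 and 0.20, and every age had libraries on both sides of 0. The libraries are named here by what they measured, so these values are a description and carry no test.

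**Figure D1:**
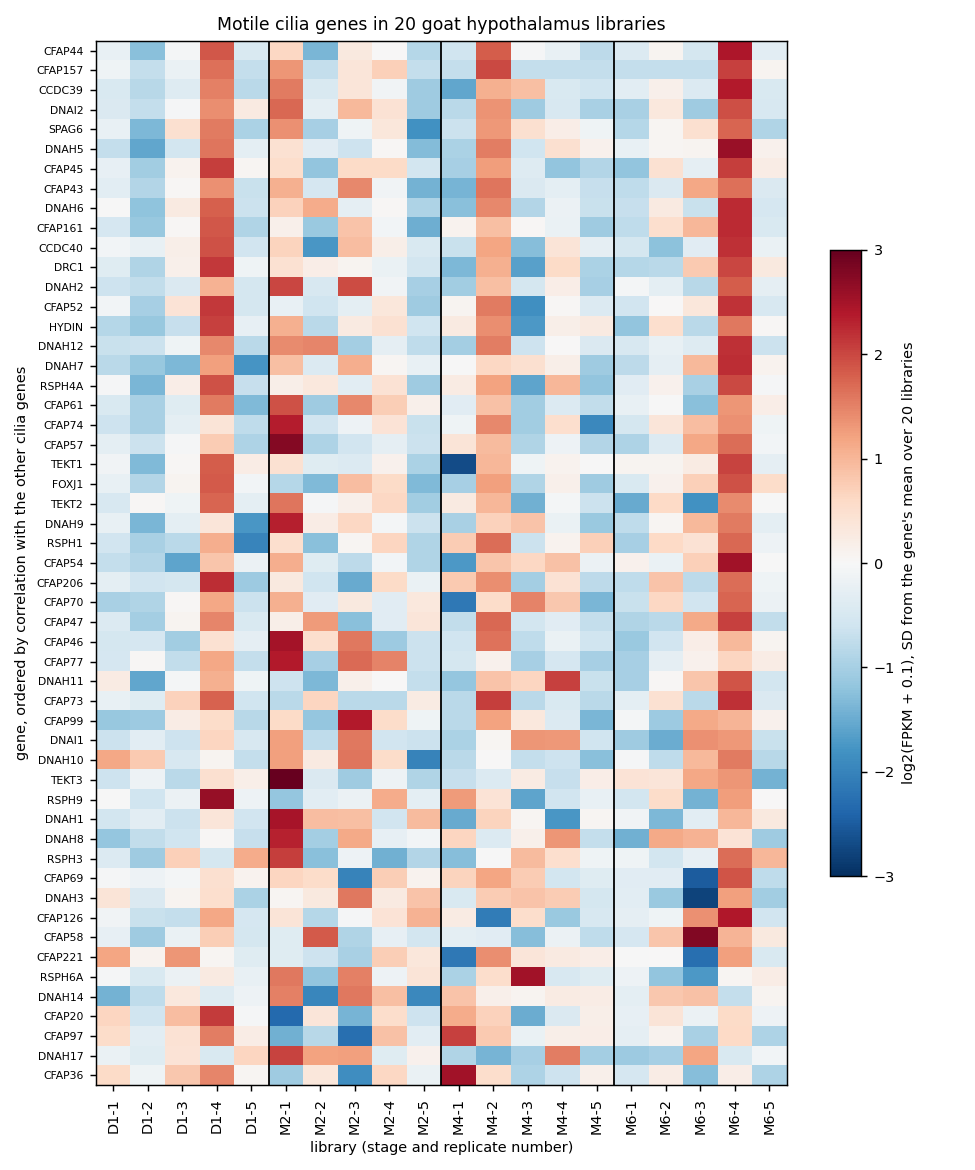
Each row is 1 of the 53 tested cilia genes and each column 1 of the 20 libraries, with the 4 ages separated by black lines. Colour gives log2(FPKM + 0.1) in SD from the gene's mean over 20 libraries. Columns D1-4, M4-2 and M6-4 are red over most rows, and column M2-1 is red for a partly different selection of genes. The rows at the bottom, with CFAP36, CFAP97 and CFAP20, follow another pattern.

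FOXJ1, the regulator, had 0.283, 0.0713, 0.448, 4.39 and 0.345 FPKM in replicates 1 to 5 of D1, 0.0755, 0, 1.42, 0.881 and 0 in M2, 0.0498, 2.08, 0.0659, 0.486 and 0.0381 in M4, and 0.189, 0.484, 1.08, 4.82 and 0.86 in M6. It was highest in replicate 4 of D1, replicate 2 of M4 and replicate 4 of M6, and those were the 3 highest of the 20 values. No other library exceeded 1.42 FPKM, and in M2 it was listed at 0 in 2 libraries. M2 replicate 1, though high for many axoneme genes, had a FOXJ1 value of only 0.0755 FPKM.

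Upstream of FOXJ1 in multiciliated cells, GMNC, which starts the programme, had 0.20, 0.0522, 0.25, 1.52 and 0.139 FPKM in replicates 1 to 5 of D1, 0.233, 0.14, 0.0791, 0.0822 and 0.276 in M2, 1.51, 1.88, 0.259, 0.658 and 0.132 in M4, and 0.0613, 0.0817, 0.269, 2.02 and 0.233 in M6. The values of D1 replicate 4, M4 replicate 2 and M6 replicate 4 were again among the 4 highest, with M4 replicate 1 at 1.51 FPKM beside them although its FOXJ1 value was 0.0498 FPKM. MCIDAS, which acts beside GMNC in cells that are becoming multiciliated, was listed at 0 in all 20 libraries.

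CCDC39 and CCDC40 form the molecular ruler that sets the repeat of dynein arms and spokes along the doublet, and DRC1 is a scaffold of the nexin-dynein regulatory complex. CCDC39 had 4.6, 3.55, 4.81, 18.5 and 3.57 FPKM in replicates 1 to 5 of D1, 19, 4.64, 8.3, 5.87 and 2.98 in M2, 2.07, 13.5, 12, 4.6 and 4.15 in M4, and 5.06, 7.12, 4.79, 33.9 and 4.64 in M6. Its mean ± SD was 7.0 ± 6.43 FPKM in D1, 8.15 ± 6.35 in M2, 7.27 ± 5.13 in M4 and 11.1 ± 12.8 in M6 (n = 5 at each age). The SD approached the mean in D1 and exceeded it in M6, where replicate 4 was far above the others of its age. DRC1 had 1.94, 1.35, 2.78, 10.3 and 2.3 FPKM in replicates 1 to 5 of D1, 3.41, 2.86, 2.64, 2.19 and 1.72 in M2, 0.972, 5.1, 0.79, 3.67 and 1.29 in M4, and 1.39, 1.44, 4.25, 9.6 and 3.03 in M6. CCDC40 was lower, with its highest values in M6 replicate 4 (2.28 FPKM), D1 replicate 4 (1.94) and M4 replicate 2 (1.27), in the same libraries as DRC1 and FOXJ1.

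HYDIN and SPAG6 belong to the central apparatus, with CFAP46, CFAP47, CFAP54, CFAP69, CFAP74 and CFAP221. SPAG6 had 0.791, 0.0958, 2.28, 10.1 and 0.229 FPKM in replicates 1 to 5 of D1, 7.91, 0.209, 0.908, 1.85 and 0 in M2, 0.411, 7.23, 2.23, 1.52 and 0.923 in M4, and 0.277, 1.23, 2.25, 13.1 and 0.252 in M6. The highest library of each age lay far above the other 4 in all 4 ages, past Dixon's critical ratio of 0.71 for 5 values. HYDIN had 1.34, 1.14, 1.48, 7.3 and 1.95 FPKM in replicates 1 to 5 of D1, 4.15, 1.38, 2.61, 2.92 and 1.57 in M2, 2.63, 5.04, 0.793, 2.48 and 2.63 in M4, and 1.1, 3.02, 1.39, 5.57 and 2.3 in M6. Its 3 highest values were those of D1 replicate 4, M6 replicate 4 and M4 replicate 2. CFAP54, the most abundant of the group, reached 47.5 FPKM in M6 replicate 4 and was between 5.64 and 23.3 FPKM elsewhere.

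Among the proteins inside the doublet wall, TEKT1 had 5.69, 2.2, 6.37, 24.9 and 7.34 FPKM in replicates 1 to 5 of D1, 8.8, 4.7, 4.51, 6.79 and 2.97 in M2, 0.714, 13.4, 5.64, 6.76 and 6.12 in M4, and 6.58, 6.62, 7.44, 29.5 and 5.03 in M6. D1 replicate 4 and M6 replicate 4 stood above all other libraries, M4 replicate 2 came next, and M4 replicate 1 was the lowest of the 20. CFAP52 had 0.775, 0.182, 1.49, 13.4 and 0.404 FPKM in replicates 1 to 5 of D1, 0.631, 0.361, 0.575, 1.37 and 0.16 in M2, 0.975, 6.65, 0, 0.895 and 0.484 in M4, and 0.376, 0.866, 1.36, 13.9 and 0.428 in M6. Its contrast between libraries was among the sharpest: outside D1 replicate 4, M4 replicate 2 and M6 replicate 4 it did not exceed 1.49 FPKM. TEKT2 reached 5.3 FPKM in D1 replicate 4, 4.46 in M2 replicate 1 and 3.63 in M6 replicate 4.

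Of the dynein arm genes, DNAH5, a heavy chain of the outer arm, had 0.975, 0.532, 1.08, 4.52 and 1.3 FPKM in replicates 1 to 5 of D1, 2.15, 1.26, 1.04, 1.62 and 0.644 in M2, 0.828, 4.36, 1.06, 2.2 and 1.71 in M4, and 1.36, 1.65, 1.67, 8.58 and 1.73 in M6. It was highest in M6 replicate 4, D1 replicate 4 and M4 replicate 2. DNAH9, the partner heavy chain of the outer arm, had 2.27, 0.674, 2.11, 4.07 and 0.426 FPKM in replicates 1 to 5 of D1, 28.9, 3.55, 5.34, 2.65 and 1.46 in M2, 1.03, 5.68, 6.7, 2.34 and 0.889 in M4, and 1.3, 3.01, 7.46, 13.5 and 2.09 in M6. Its highest value was in M2 replicate 1 and its next in M6 replicate 4, whereas D1 replicate 4 had 4.07 FPKM. The intermediate chain gene DNAI2 was near 0 in most libraries and reached 4.35 FPKM in M6 replicate 4, 3.24 in M2 replicate 1, 2.13 in D1 replicate 4 and 2.0 in M4 replicate 2. DNAI1, its partner, was above 2 FPKM in M2 replicate 1, M2 replicate 3, M4 replicate 3, M4 replicate 4, M6 replicate 3 and M6 replicate 4, and had 1.15 FPKM in D1 replicate 4. The 2 intermediate chains of the same complex therefore peaked in partly different libraries.

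**Figure D2:**
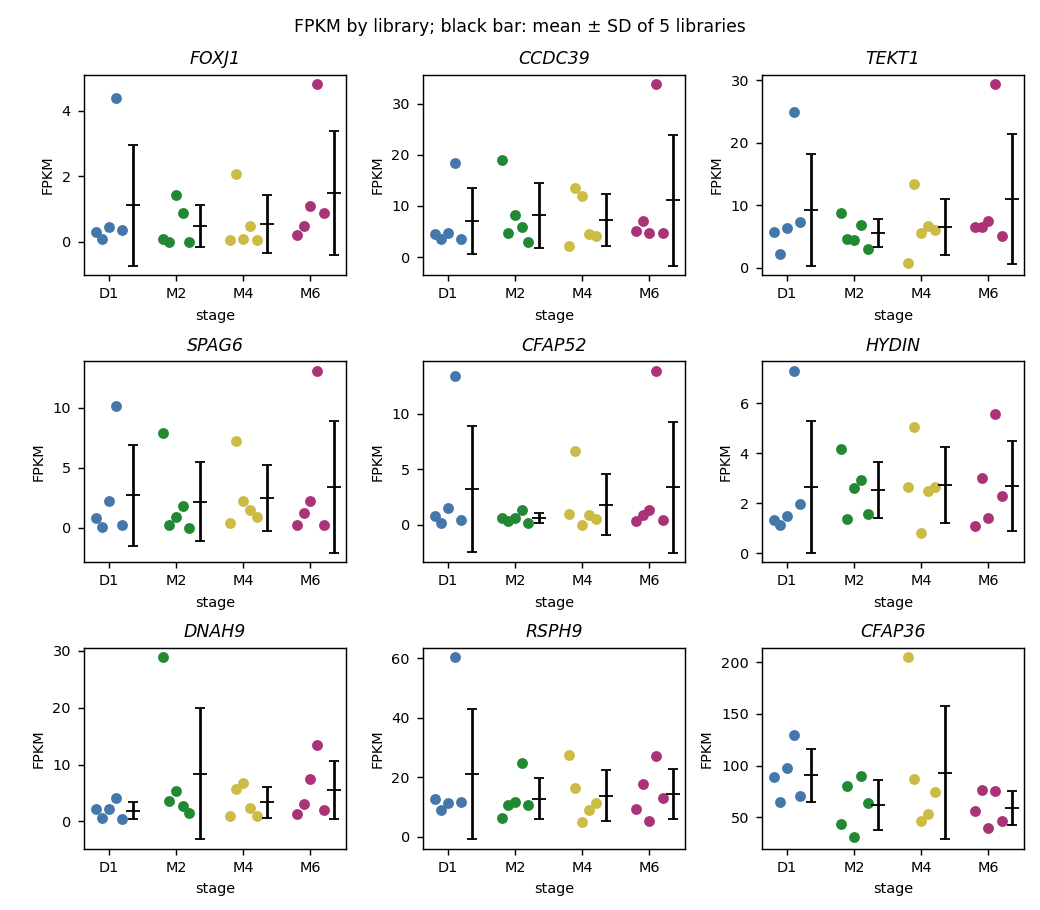
FPKM (vertical axis, linear, a separate scale for each gene) of 9 cilia genes by age, with 1 point for each of 5 libraries in replicate order and the mean ± SD as a black bar. For FOXJ1, CCDC39, TEKT1, SPAG6, CFAP52 and HYDIN the fourth D1 and M6 points and the second M4 point stand above the others of their age, DNAH9 is highest in the first M2 point, and CFAP36 is highest in the first M4 point, at 204 FPKM.

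D1 replicate 4, M4 replicate 2 and M6 replicate 4 shared more than a high total. Each was the highest of its age for the same 32 of the 53 genes (60.4%), which held for 3.15% of all tested genes, and they were the 3 highest of all 20 libraries for 16 genes (30.2% against 0.698%), among them FOXJ1, HYDIN, DRC1, CCDC40, TEKT1, CFAP52, RSPH1, RSPH4A, DNAH5 and DNAH6. Across the 53 genes the log2 levels of M6 replicate 4 correlated with those of D1 replicate 4 at r = 0.93 and with those of M4 replicate 2 at r = 0.91. With the other 17 libraries r ran from 0.47 to 0.81. These correlations are across genes, which are not independent replicates.

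M2 replicate 1 was high in a partly different way. It and the 3 libraries above were each the highest of their age for the same 17 of the 53 genes (32.1%, all tested genes 1.17%). Over the 53 genes the log2 levels of M2 replicate 1 correlated with those of M6 replicate 4 at r = 0.47. It was above M6 replicate 4 for 15 genes and below it for 38. It held the highest value of all 20 libraries for 12 genes. Among them DNAH1, an inner arm heavy chain, was 4.11 times as high as in M6 replicate 4, CFAP46 3.45 times, CFAP57 3.53 times (54.5% of its summed FPKM lay in M2 replicate 1), DNAH8 9.17 times and DNAH9 2.14 times. At the other end FOXJ1 was at 0.0157, CFAP52 at 0.0454, RSPH4A at 0.164, CFAP44 at 0.231 and RSPH9 at 0.239 times the M6 replicate 4 level. M2 replicate 1 was also the library with low neuron genes named above, and it held the highest value of all 20 libraries for 14.3% of all tested genes. Its microglia profile, computed like the cilia profile over 8 genes, was 1.60, the highest of the 20. Of the 8 microglia genes, 6 (75%) had their highest value there. Its endothelial profile over 8 genes was 1.18, the highest of the 20 but close to the 1.16 of M2 replicate 3. Of the 8 endothelial genes, 1 (12.5%) had its highest value in M2 replicate 1 and 2 (25%) in M2 replicate 3. The part that these features have in the high cilia genes of M2 replicate 1 was not tested.

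**Figure D3:**
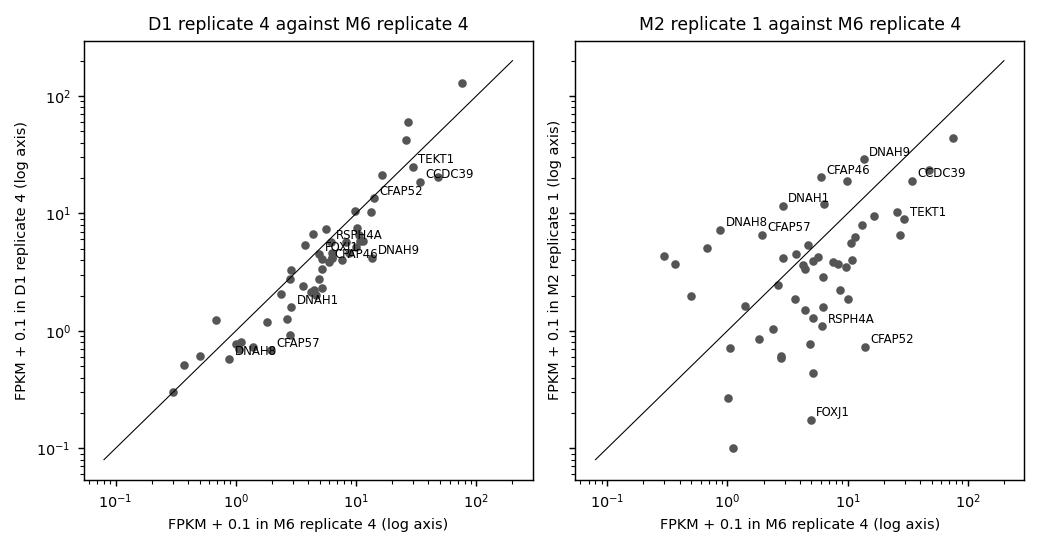
Each point is 1 of 53 cilia genes, with FPKM + 0.1 in M6 replicate 4 on the horizontal log axis and FPKM + 0.1 in D1 replicate 4 (left) or M2 replicate 1 (right) on the vertical log axis; the line marks equal levels. The left cloud follows the line (r = 0.93), while on the right DNAH1, DNAH8, CFAP46 and CFAP57 lie above it and FOXJ1, CFAP52 and RSPH4A far below it (r = 0.47).

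Between pairs of cilia genes, the median Pearson correlation of log2(FPKM + 0.1) over the 20 libraries was 0.42 for 1378 pairs, and 0.46 after the mean of each age was removed. It exceeded 0.5 for 41.0% of pairs. Among 839 tested genes taken as every 20th of the table, the median was 0.01 and 6.21% of pairs exceeded 0.5. Correlated with the mean of the other cilia genes, 28 of 53 had r above 0.7 and 8 had r under 0.3, with a median of 0.71. Without the 2 libraries farthest from the median of the cilia profile the median was 0.59 and 15 genes were above 0.7. These 2 farthest libraries, here and below, were M6 replicate 4 (cilia profile 1.54) and D1 replicate 4 (1.17). M2 replicate 1 and M4 replicate 2, at 0.86 each, stayed in, so the remaining r still includes high libraries. The relation thus rested partly on the 2 libraries left out.

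The genes that followed the others most closely came from different parts of the axoneme. CFAP44, part of the link between doublets and inner arms, had r = 0.93, CFAP157 0.92, CCDC39 0.89, DNAI2 0.88 and SPAG6 0.87. CFAP157 was listed at 0 in most libraries and reached at most 1.73 FPKM, in M6 replicate 4, so its r comes from values near the floor. By role, the 3 ruler and regulatory complex genes had the narrowest range, from 0.83 to 0.89. The 8 central apparatus genes ran from 0.25 to 0.87 with a median of 0.69, the 8 inner arm heavy chains from 0.19 to 0.85 with a median of 0.63, and the 5 outer arm heavy chains from 0.05 to 0.87 with a median of 0.63. The 5 radial spoke genes had a median of 0.45 and the 3 tested tektins 0.74.

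Of the 5 most abundant genes, 3 did not follow the others. CFAP36, CFAP20 and CFAP97, which are known from cells without motile cilia too, had r = 0.02, 0.15 and 0.11, and without the 2 farthest libraries -0.25, -0.27 and -0.22. CFAP36 had 88.7, 65.1, 97.9, 129 and 71 FPKM in replicates 1 to 5 of D1, 43.9, 80.1, 31.2, 90.2 and 63.6 in M2, 204, 87, 46.3, 53.1 and 73.9 in M4, and 56, 76.2, 39.8, 75.4 and 46.3 in M6. Its peak was in M4 replicate 1, a library with low FOXJ1 and TEKT1. CFAP20 ran from 10.1 to 42.2 FPKM and CFAP97 from 7.43 to 24.6 FPKM, and both were detected in all 20 libraries. RSPH9, the third most abundant cilia gene, had r = 0.45, and -0.02 without those libraries; it reached 60.3 FPKM in D1 replicate 4 and was between 4.97 and 27.6 FPKM elsewhere.

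Some genes known best from the sperm flagellum were among those apart from the rest. DNAH17, a heavy chain of the sperm outer arm, had r = 0.05 and RSPH6A, a spoke head gene of sperm, had r = 0.24. RSPH6A was highest in M4 replicate 3 (4.54 FPKM) and DNAH17 in M2 replicate 1 (4.21 FPKM). DNAH8, also an outer arm chain of sperm, had r = 0.41 and TEKT3 0.45, both with their highest values in M2 replicate 1, at 7.12 and 11.9 FPKM. The sperm genes TNP1 and ODF1 were listed at 0 in all 20 libraries, while AKAP4, a gene of the sperm tail, was above 0 in all 20, from 0.0736 to 2.66 FPKM, and over 1 FPKM in 3. Other genes apart from the rest were DNAH14 (r = 0.19), CFAP221 (0.25) and CFAP58 (0.26), and CFAP58 was highest in M6 replicate 3 (5.23 FPKM).

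The study followed long non-coding RNAs over these ages up to sexual maturity, and the same ages were compared here for the genes of the expression table. Each pair of ages, and the mean of the later 3 ages against D1, was compared for all 16771 tested genes with limma on log2(FPKM + 0.1), with a gene called at a Benjamini-Hochberg adjusted p under 0.05 and a log2 fold change of at least 1 in size. None of the 53 cilia genes was called in any of the 7 comparisons. Of all tested genes 0% were called for M2 against D1, 0% for M4 against M2, 0% for M6 against M4, 0.0537% for M4 against D1, 0.00596% for M6 against D1, 0% for M6 against M2 and 0.0596% for the later ages against D1, so a count of 0 among 53 genes lies at the background. No cilia gene had values that separated 2 ages without overlap. Of all tested genes, 3.82% did so between M2 and D1, 1.09% between M4 and M2, 0.775% between M6 and M4, 1.93% between M4 and D1, 2.84% between M6 and D1, 0.757% between M6 and M2, and 0.143% between the later ages together and D1.

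At an unadjusted p under 0.05 the share of cilia genes was below that of all tested genes in each comparison. The counts were 3 of 53 for M2 against D1 (5.66%, background 15.6%), 4 for M4 against M2 (7.55%, background 8.68%), 1 for M6 against M4 (1.89%, background 6.87%), 0 for M4 against D1 (background 8.71%), 2 for M6 against D1 (3.77%, background 7.41%), 2 for M6 against M2 (3.77%, background 6.14%) and 1 for the later ages against D1 (1.89%, background 11.7%). The smallest adjusted p of a cilia gene in limma was 0.257, for DNAH1 in M2 against D1. Within an age, the SD of log2(FPKM + 0.1) had a median of 1.22 over the cilia genes and 0.57 over all tested genes. The lower shares therefore do not show that cilia genes changed less with age.

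The median log2 fold change of the 53 genes was 0.20 for M2 against D1 (all tested genes -0.07), -0.19 for M4 against M2 (all -0.02), 0.31 for M6 against M4 (all 0.04), -0.02 for M4 against D1 (all -0.07), 0.29 for M6 against D1 (all -0.05), 0.12 for M6 against M2 (all 0.02) and 0.15 for the later ages against D1 (all -0.07). The log2 fold change was above 0 for 40 of 53 genes (75.5%, all genes 44.9%) in M6 against D1 and for 39 (73.6%, all genes 53.9%) in M6 against M4. It was above 0 for 32 genes in M2 against D1 (60.4%, all genes 44.8%), for 22 in M4 against M2 (41.5%, all 48.3%), for 26 in M4 against D1 (49.1%, all 43.7%), for 31 in M6 against M2 (58.5%, all 51.9%) and for 34 in the later ages against D1 (64.2%, all 43.1%). These genes moved together between libraries, so the counts describe the same few libraries many times. M2 replicate 1, M2 replicate 3 and M6 replicate 3 were named above for features of their overall makeup. Without them the median for M2 against D1 was -0.21, for M4 against M2 0.06 and for M6 against M2 0.44. Libraries kept here stood apart too. M4 replicate 1 held the highest value of all libraries for 11.4% of all tested genes and D1 replicate 4 for 11.3%. M2 replicate 3 held it for 8.5% and M6 replicate 3 for 8.57%. M2 replicate 1 also had the highest cilia profile of M2, so these medians do not isolate overall makeup. Without the highest library of each age the median for M6 against M2 was -0.08 and for M4 against D1 0.06. Leaving out a single library was enough to move them: without M6 replicate 4 the median was -0.15 for M6 against D1, -0.11 for M6 against M4 and -0.26 for M6 against M2, with 18, 21 and 16 of the 53 genes above 0 in that order. Without D1 replicate 4 it was 0.75 for M6 against D1, 0.64 for the later ages against D1, 0.64 for M2 against D1 and 0.40 for M4 against D1. Without M2 replicate 1 it was -0.11 for M2 against D1 and 0.05 for M4 against M2, and without M4 replicate 2 it was 0.58 for M6 against M4 and -0.25 for M4 against D1. The signs of several of these medians therefore changed with the libraries included.

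**Figure D4:**
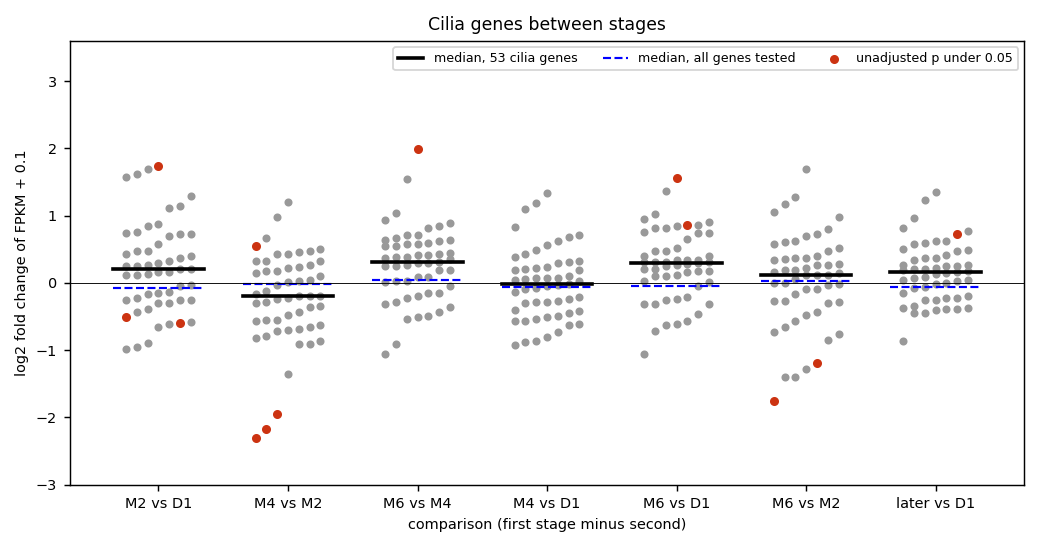
Each point is the log2 fold change of FPKM + 0.1 (vertical axis) of 1 of 53 cilia genes in 1 of the 7 comparisons (horizontal axis, first age minus second; later is the mean of M2, M4 and M6). Red points have an unadjusted p under 0.05, none of them past adjustment; the black bars, medians of the cilia genes, lie between -0.19 and 0.31 and the dashed blue bars, medians of all tested genes, between -0.07 and 0.04.

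FOXJ1 illustrates the width of these estimates. With the values given above, its mean ± SD was 1.11 ± 1.84 FPKM in D1, 0.475 ± 0.646 in M2, 0.544 ± 0.878 in M4 and 1.49 ± 1.89 in M6 (n = 5 at each age). The log2 fold change of M6 over D1 was 0.74 (SE 1.00, 95% confidence interval -1.34 to 2.82, limma adjusted p = 0.875), and that of M6 over M2 was 1.70 (SE 1.00, interval -0.38 to 3.78, limma adjusted p = 0.750). Intervals of that width include no change and also several-fold changes in either direction for M6 over D1. For HYDIN, the steadiest of the 6 singly named genes in its age means, the log2 fold change of M6 over D1 was 0.16 (interval -0.93 to 1.26), and for CCDC39 it was 0.47 (interval -0.82 to 1.76). Without M6 replicate 4 these were -0.15 for HYDIN and -0.06 for CCDC39.

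The genes with an unadjusted p under 0.05 were few, and not every such comparison is given here. DNAH1 had 0.561, 0.736, 0.514, 1.49 and 0.558 FPKM in replicates 1 to 5 of D1, 11.5, 2.6, 2.54, 0.55 and 2.64 in M2, 0.168, 1.99, 1.09, 0.116 and 1.09 in M4, and 0.923, 0.216, 0.725, 2.79 and 1.39 in M6. Its M2 values were above 2 FPKM in 4 of 5 goats, its D1 values at or under 1.49, and the ages overlapped through M2 replicate 4. The log2 fold change of M2 over D1 was 1.74 (SE 0.72, interval 0.24 to 3.23, limma adjusted p = 0.257) and that of M4 over M2 -1.95 (SE 0.72, interval -3.44 to -0.45, limma adjusted p = 0.509).

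DNAH7, an inner arm heavy chain, had 2.33, 1.99, 1.78, 6.46 and 1.43 FPKM in replicates 1 to 5 of D1, 5.49, 2.88, 6.02, 3.61 and 3.13 in M2, 3.49, 4.79, 4.46, 3.86 and 2.05 in M4, and 2.38, 3.07, 5.73, 10.6 and 3.72 in M6. D1 replicate 4 exceeded 14 of the 15 later libraries, while the other 4 D1 values were between 1.43 and 2.33 FPKM and 14 of the 15 later values lay above 2.33 FPKM. The log2 fold change of the later ages over D1 was 0.72 (SE 0.33, interval 0.03 to 1.41, limma adjusted p = 0.411). CFAP58 was 1.99 higher on the log2 scale in M6 than in M4 (SE 0.74, limma adjusted p = 0.70), with M6 replicate 3 the highest at 5.23 FPKM. The log2 fold change of M4 over M2 was -2.17 for DNAH17 (SE 0.84, limma adjusted p = 0.520) and -2.30 for CFAP77 (SE 0.92, limma adjusted p = 0.535). For CFAP97 it was 0.55 (SE 0.23, limma adjusted p = 0.541). The inner arm gene DNAH3 had a log2 fold change of M6 over M2 of -1.19 (SE 0.47, limma adjusted p = 0.746). Of the abundant genes, CFAP20 had a log2 fold change of M2 over D1 of -0.60 (SE 0.27, limma adjusted p = 0.293) and CFAP97 of -0.51 (SE 0.23, limma adjusted p = 0.286); their M2 values were lowest in M2 replicates 1 and 3.

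Other genes of the cilium, from lists that the rule did not use, followed the same libraries. Dynein arms are put together in the cytoplasm by preassembly factors before transport, and the profile of the 11 tested factors, computed like the cilia profile, correlated with it over the 20 libraries at r = 0.94 (0.87 without the 2 farthest libraries). That of 56 tested other axoneme genes had r = 0.95 (0.90 without them), that of 10 docking and light chain genes 0.83 (0.63) and that of 13 regulators of multiciliation 0.78 (0.69). The other axoneme genes include members of the rule's own families listed under older symbols, such as WDR78 (DNAI4), so that list is not wholly separate. Of the 56 other axoneme genes, 28 had their highest value of all 20 libraries in M6 replicate 4 (50%, all genes 5.66%). CAPSL, a calcium-binding protein gene usually listed with ciliated cells, had 1.56, 0, 4.2, 21.3 and 1.58 FPKM in replicates 1 to 5 of D1, 1.52, 1.22, 3.01, 5.32 and 0.139 in M2, 0.467, 17.1, 1.11, 2.0 and 0.328 in M4, and 1.1, 3.77, 0.472, 39.4 and 1.29 in M6. PIFO was 5.11 FPKM in D1 replicate 4, 1.98 in M4 replicate 2 and 5.27 in M6 replicate 4, and at most 0.648 FPKM in the rest, M2 replicate 1 included. No gene of these lists was called in any of the 7 comparisons, in which 0% to 0.0596% of all tested genes were called. The smallest limma adjusted p in these lists was 0.134, among the multiciliation regulators for M2 against D1.

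Of 13034 genes outside the rule with a median of at least 1 FPKM, those whose log2 levels followed the cilia profile most closely over the 20 libraries were SPEF2 (r = 0.90, Spearman's rho 0.77), LRRC71 (0.89), WDR78 (0.88), ZMYND10 (0.87), LRRC6 (0.85), LOC102176425 (0.85), CAPSL (0.84), EFCAB1 (0.83), DCDC1 (0.82) and LRRIQ1 (0.82). SPEF2 had 1.08, 0.458, 1.03, 5.54 and 0.929 FPKM in replicates 1 to 5 of D1, 3.62, 1.28, 0.905, 2.01 and 1.23 in M2, 1.43, 3.35, 1.1, 2.15 and 0.933 in M4, and 0.826, 1.55, 2.69, 9.47 and 1.96 in M6. Its r without the 2 farthest libraries was 0.80. After the mean of each age was removed, 7 of the 10 genes stayed among the closest 10, and CCDC146, SYNE1 and RPGR entered. Of the first 10, 7 were also in the gene lists used here, and all 10 had their highest value in M6 replicate 4.

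Genes of the primary cilium followed less closely. The profile of 38 genes of intraflagellar transport, the BBSome and ciliary signalling had r = 0.72 with the cilia profile, and 0.33 without the 2 farthest libraries. In M6 replicate 4 its value was 1.25, in D1 replicate 4 0.68, in M2 replicate 1 0.36 and in M4 replicate 2 0.16. IFT88, an intraflagellar transport gene, was 7.76 FPKM in M6 replicate 4 and between 2.39 and 5.08 FPKM elsewhere.

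Ventricle lining genes that are no part of the cilium followed the cilia genes in some libraries only. The profile of 17 tested ependymal and tanycyte genes, several of them also expressed by astrocytes, had r = 0.48 with the cilia profile and -0.05 without the 2 farthest libraries. It was 0.72 in D1 replicate 4 and 0.53 in M6 replicate 4, the 2 highest of the 20, and -0.50 in M4 replicate 2, the lowest, where the cilia profile was 0.86. RAX and GPR50, markers of the tanycytes of the ventricle floor, did not exceed 0.129 and 0.0194 FPKM in any library. The choroid plexus, the other multiciliated epithelium of the ventricles, was measured with 16 genes, and the profile of its 13 tested genes had r = -0.36 (-0.12 without the 2 farthest libraries). The summed level of the 16 genes was 65.7 FPKM in D1 replicate 4, the lowest of the 20, 82.7 in M4 replicate 2 and 85.5 in M6 replicate 4, and up to 168 elsewhere. Most of that sum was ENPP2, which had a median of 72.7 FPKM (11.8 to 145) and is expressed by other brain cells too, as are several of these genes. Of the defining ones, CLIC6 did not exceed 0.104 FPKM, KCNE2 was listed at 0 in 14 libraries, these 3 included, and TTR was 0.83 FPKM in D1 replicate 4, 6.44 in M4 replicate 2 and 14.3 in M6 replicate 4, within its range of 0.279 to 23.0 over all libraries. OTX2, a transcription factor of this epithelium, exceeded 1 FPKM in 13 libraries with a highest value of 7.08, KL in 7 (up to 2.28), KCNJ13 in 3 (up to 5.96) and AQP1 in 2 (up to 3.77). OTX2 was 0.586 FPKM in D1 replicate 4, 6.67 in M4 replicate 2 and 0.227 in M6 replicate 4, and KCNJ13 was 1.07, 0.0508 and 0.218 FPKM in the same order. The part of choroid plexus in the cilia genes was not tested.

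Myelin genes were low in the same libraries. The profile of 8 oligodendrocyte genes had r = -0.65 with the cilia profile (-0.42 without the 2 farthest libraries). MBP, a structural protein of myelin, had 1251, 1090.1, 890.1, 45.6 and 1011 FPKM in replicates 1 to 5 of D1, 515, 474, 649, 130.3 and 444 in M2, 23.4, 94, 1706, 1073 and 648 in M4, and 1022, 398, 981, 56.5 and 810.3 in M6. Its values in D1 replicate 4, M4 replicate 2 and M6 replicate 4 were the lowest of their age or next to it, and the summed level of the 8 genes in these libraries, 1041, 1100.1 and 763 FPKM, compared with 2701 to 16508 FPKM in the other libraries except M4 replicate 1. M4 replicate 1 had the lowest sum, 497 FPKM, with a cilia profile of -0.46. The part that the makeup of the dissected tissue has in the differences between libraries was not tested.

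**Figure D5:**
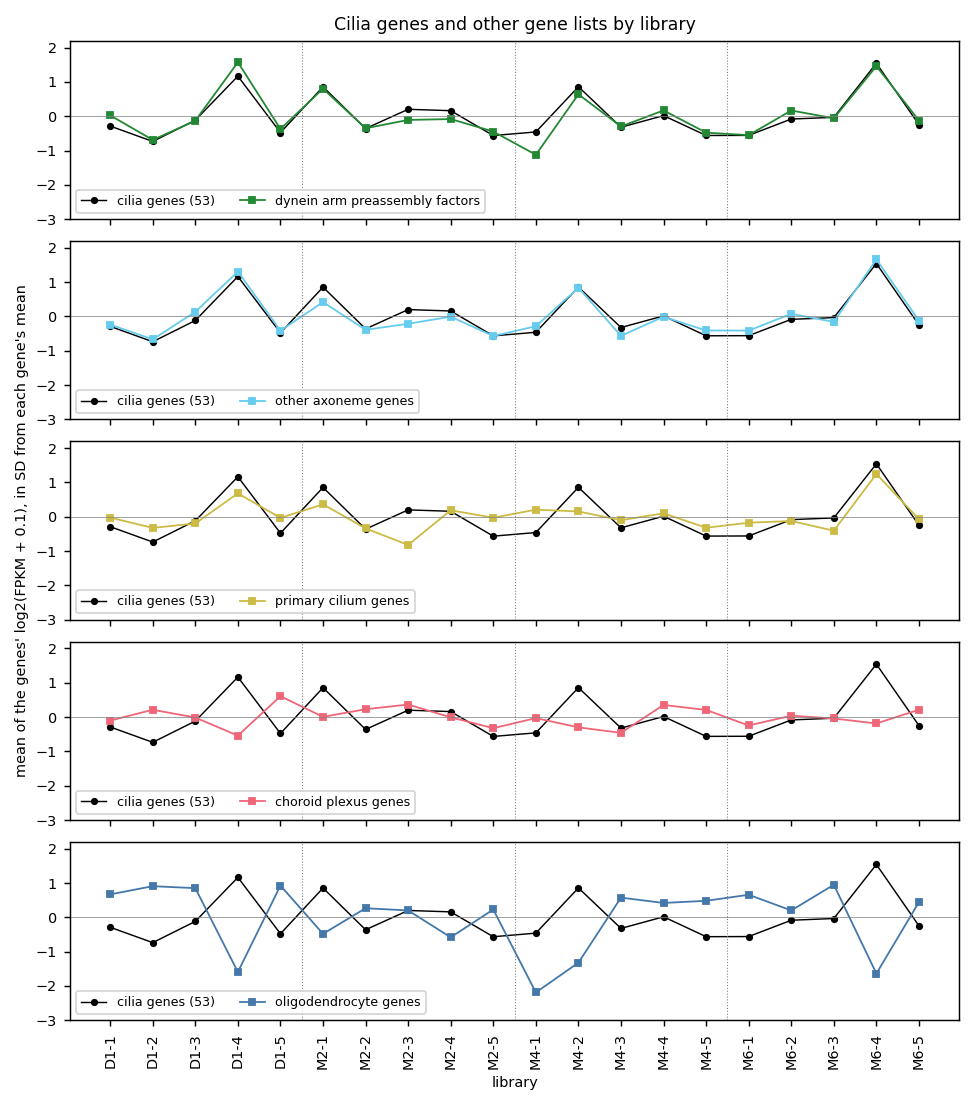
The cilia profile of the 53 genes (black, repeated in each panel) and the profiles of 5 gene lists (colour) in the 20 libraries, in SD of log2(FPKM + 0.1) from each gene's mean. Preassembly factors and other axoneme genes follow the black line (r = 0.94 and 0.95), primary cilium genes follow it less (0.72), choroid plexus genes do not (-0.36), and oligodendrocyte genes dip in D1-4, M4-2, M6-4 and also M4-1.

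Genes of further cell types gave r with the cilia profile of -0.22 for 9 astrocyte genes, -0.12 for 11 neuron genes, 0.16 for 8 microglia genes, -0.10 for 8 endothelial genes, 0.39 for 16 tested hypothalamic genes (0.10 without the 2 farthest libraries) and 0.16 for 3 tested pituitary genes. Of the pituitary hormone genes GH1, TSHB, LHB and FSHB stayed below 1 FPKM in all 20 libraries. The subunit gene CGA was over 1 FPKM in 1 library, at 2.12, the pituitary factor POU1F1 was listed at 0 in 18 with a highest value of 1.58, and POMC, which hypothalamic neurons express too, was over 1 FPKM in 14, up to 5.63. The hypothalamic profile was highest of the 20 in M6 replicate 4, at 1.48, and 7 of the 16 hypothalamic genes had their highest value there (43.8%, all genes 5.66%). Its part in the high cilia genes of that library was not tested. The list of airway, oviduct and sperm axoneme genes had r = 0.56, and 6 of its genes are themselves cilia genes of the rule.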

How the data were processed

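Total RNA from 20 goat hypothalami was depleted of ribosomal RNA and made into strand-specific libraries. The authors filtered the reads, aligned them to the goat assembly ARS1.2 with HISAT2 (2.0.5) and assembled transcripts with StringTie (1.3.3b), and deposited FPKM values per gene. Gene IDs were matched to RefSeq symbols of the same assembly (20610 of 21071). Whole reads could not be recovered: of 9394 low values in 1535 genes, 10.4% lay within 0.05 of a whole multiple. Reads per gene are therefore unknown, although the study's quality table gives reads per library, and no counting interval is given. The 16771 genes that reached 0.1 FPKM in 5 libraries or more were tested with limma (3.58.1, R 4.3.3; trend) on log2(FPKM + 0.1), all 20 libraries in 1 fit without covariates, with Benjamini-Hochberg adjustment over all tested genes. The added 0.1 FPKM shrinks the fold changes of genes with low values. The fit was run on simulated data with independent noise for each gene and library. That setting does not cover libraries in which many genes shift together, as here. Each library is a separate goat.

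The cilia genes and the gene lists were chosen with earlier results of these data known. The text names FOXJ1, CCDC39, CCDC40, DRC1, HYDIN and SPAG6, the 10 cilia genes with the highest mean, those with the smallest p in each comparison and direction, and the closest genes outside the rule. Others, among them CFAP52, DNAH5, DNAI2, RSPH6A and TEKT2, were chosen after their values were seen. Alternatives covered the pseudocount, the filter, normalization, variance trend, library weights, a replicate block, the mapping rate of each library in the study's quality table as a covariate, the stages fitted, and each library left out; both sets of several left-out libraries were chosen after seeing the data. Correlations used Pearson's r unless named, and share libraries, so no p is given. Python 3.11.15, pandas 2.3.3, numpy 2.4.6 and matplotlib 3.10.9 were used for the rest.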

Additional observations from a re-analysis of the deposited data

Results flagged for a closer look

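In groups of 5 libraries, the gap between the highest (or lowest) value and its neighbour, divided by the whole range, exceeded Dixon's critical value of 0.71 in 83 of 212 combinations of a tested cilia gene and an age (39.2%), against 13.4% over all tested genes. The critical value stands for about 1 in 20 only where values are normally distributed, which FPKM need not be, so 13.4% is the background to compare with. The combinations are not independent because the same libraries recur. Counted over all 55 genes, D1 replicate 4 accounted for 32 such values, M6 replicate 4 for 20, M4 replicate 2 for 17 and M2 replicate 1 for 8.

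Among the genes named here, D1 replicate 4 lay far from the other 4 libraries of its age for RSPH9 (60.3 FPKM), TEKT1 (24.9), CCDC39 (18.5), CFAP52 (13.4), DRC1 (10.3), SPAG6 (10.1), HYDIN (7.30), DNAH7 (6.46), CFAP126 (5.75), CFAP43 (5.63), RSPH4A (5.59), TEKT2 (5.30), DNAH5 (4.52), FOXJ1 (4.39), DNAH6 (4.11), RSPH1 (4.09), CFAP44 (3.24), CFAP47 (2.67), DNAI2 (2.13), CCDC40 (1.94), DNAH1 (1.49), DNAI1 (1.15), CFAP157 (1.10), CFAP58 (0.670) and CFAP65 (0.227). M6 replicate 4 did so for CFAP54 (47.5 FPKM), CCDC39 (33.9), TEKT1 (29.5), CFAP52 (13.9), SPAG6 (13.1), CFAP69 (11.4), DNAH5 (8.58), DNAH6 (6.18), RSPH4A (6.05), CFAP44 (5.10), FOXJ1 (4.82), DNAI2 (4.35), CFAP221 (2.71), CCDC40 (2.28), CFAP157 (1.73) and CFAP65 (0.529). In M4 replicate 2 the genes were CFAP46 (10.1 FPKM), CFAP43 (7.71), SPAG6 (7.23), CFAP52 (6.65), CFAP47 (3.50), CFAP44 (3.13), DNAH6 (3.00), FOXJ1 (2.08), DNAI2 (2.00), CFAP157 (1.59), CFAP65 (0.397) and TEKT5 (0.176), and in M2 replicate 1 DNAH9 (28.9 FPKM), CFAP74 (18.8), TEKT3 (11.9), DNAH1 (11.5), SPAG6 (7.91), DNAH8 (7.12) and CFAP57 (6.51).

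Other libraries were far from the rest of their age for single genes. CFAP36 was 204 FPKM and DNAH14 1.75 in M4 replicate 1, RSPH6A 4.54 in M4 replicate 3, RSPH9 24.8 in M2 replicate 4, DNAH11, an outer arm heavy chain, 6.06 in M4 replicate 4, DNAH17 2.44 in M4 replicate 4 and 1.63 in M6 replicate 3, and CFAP58 2.10 in M2 replicate 2 and 5.23 in M6 replicate 3.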

How the results depend on the processing

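The count of cilia genes called was 0 in every comparison under every alternative run, and 0 to 0 over the fits that left out 1 library. The smallest limma adjusted p of a cilia gene over all of them was 0.104 (M2 against D1 without M2 replicate 4). Library quality weights raised the number called to 148 of 16771 tested genes for M2 against D1 and 223 of 16771 for the later ages against D1. None of the 53 cilia genes was among them, and at such shares a count of 0 among 53 lies near the background.

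The same replicate numbers do not pair the goats: deviations of same-numbered libraries from their age means correlated at a median r of -0.01 over 30 pairs, against 0.00 over 120 pairs of different numbers. With the replicate block, 0 cilia genes were called in any comparison.

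Among the named genes, the sign of the log2 fold change turned in these cases, none past the threshold, and the cause was not tested. With the mapping rate as a covariate, DNAH9 was -0.027 for M2 against D1 and -0.080 for the later ages against D1, DNAH8 -0.033 for M4 against D1, and CFAP20 0.023 and CFAP36 0.16 for the later ages against D1. With the replicate block and the mapping rate together, CFAP20 was 0.041 for M2 against D1 and 0.14 for the later ages, DNAH8 -0.38 for M4 against D1, CFAP36 0.032 for M6 against D1 and 0.30 for the later ages, and HYDIN -0.086 and CCDC39 -0.15 for M6 against D1. FOXJ1 for the later ages against D1 was -0.34 with all libraries, 0.39 without D1 replicate 4 and 0.041 without the highest library of each age; without 1 library it ran from -0.79 to 0.39. For M6 against D1, HYDIN was 0.16 with all libraries, -0.030 without D1 replicate 2 and -0.15 without M6 replicate 4 (range -0.15 to 0.61 without 1 library), and CCDC39 was 0.47 with all libraries and -0.058 without M6 replicate 4 (range -0.058 to 0.90). For the later ages against D1, a fit of only the ages compared was not run, since it uses the same libraries.

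With 5 goats an age and 1 high library in each, changes of the size of the intervals given above could not have been seen, and a p that misses the threshold does not show that the ages were alike. Reads per gene could not be recovered, so values near 0 carry no counting error.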
